A study of Homo sapiens with 9 samples.

Results

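The genes that carry cells from G1 into S phase and copy the DNA were followed through a microarray experiment on a SIN3 decoy peptide in breast cancer cells labelled MDA-MB-231. The list held 46 genes, out of 18417 genes that had at least 1 probe (a transcript cluster of the array) annotated with a single gene symbol, and each gene was read from its probe with the highest mean over the 9 arrays. Of the 46 genes, 44 had 1 such probe and CLSPN and UHRF1 had 2. By role, the list held 6 G1/S regulators, 10 genes of origin licensing, 6 of origin firing, 7 DNA polymerase and primase subunits, 5 genes of the sliding clamp and its loader, 2 of Okazaki fragment maturation, 4 of nucleotide supply and 6 of chromatin assembly, replication-coupled control and checkpoint signalling.

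DNA replication is prepared in G1, when the origin recognition complex, CDC6 and CDT1 load the ring-shaped MCM helicase on DNA, and begins when CDC45 and the GINS complex join MCM and switch the helicase on. Cyclin E with CDK2 drives this transition by phosphorylating RB proteins, which releases E2F transcription factors, and many genes of the replication machinery are textbook E2F targets that peak at G1/S. SIN3A and SIN3B are scaffolds of histone deacetylase complexes, and among the factors that recruit them are members of the MAD family and E2F/RB-family repressor complexes, which bear on cell cycle genes in many cell types.

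Total RNA was measured on 9 Affymetrix Human Gene 1.0 ST arrays, in 3 groups of 3 arrays each. MDA-MB-231 is a triple negative line, that is, one without estrogen receptor, progesterone receptor or amplified HER2, and it is mesenchymal in shape. UT cells received no peptide, SCR cells received a scrambled control peptide and SID cells received 2.5 µM of the SID decoy, a cell-penetrating peptide with the SIN3 interaction domain of MAD that occupies the PAH2 domain of SIN3, for 24 h. The labels give the dose for SID alone, and the study's methods give 2.5 µM and 24 h for both peptides. No allele or transgene was involved. The study's methods speak of independent biological replicates, but of fewer than the 3 arrays a group holds here and without naming them, and the labels do not say whether the arrays came from separate cultures. The p-values therefore measure the spread between these arrays, part of which may be technical. In bulk RNA of this kind, fewer cells in S phase and less RNA per cell cannot be told apart.

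The sequences upstream of some of the genes are shown first, because many replication genes are textbook E2F targets and the E2F-type element is short enough to be read in them. The genes were chosen by role, so the share with the element describes the list and is not a test. RefSeq promoter windows (GRCh38.p14, 250 bases before to 50 bases after a start) were at hand for 40 of the 46 genes, with 50 windows in all, and those of CCNE2, E2F8, MCM4, MCM5, GINS4 and POLD3 were not used here. The E2F-type element was searched as TTTCCCGC, TTTGGCGC, TTTCGCGC or TTTGCCGC on both strands, which can overlap each other when they face opposite ways. It stood in 24 of the 50 windows of the list (48%, in 23 of the 40 genes) and in 3.31% of all 35116 promoter windows of the same length. The CCAAT box (CCAAT on either strand) stood in 30 of the 50 windows, against 34.6% of all. The cell cycle homology element of late cell cycle genes (TTTGAA on either strand) stood in 1 of the 50, against 15.2% of all. In 26 windows of 20 mitosis genes the same searches gave 4 with the E2F-type element (15.4%), 22 with the CCAAT box (84.6%) and 15 with the late element (57.7%). The share with the CCAAT box was thus higher in the mitosis genes than in the list.

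The 100 bases before the start are printed for 6 genes, 5′ to 3′ on the gene's own strand, with each E2F-type match in capitals. MCM6 (chr2:135876444-135876543, minus strand) and POLA2 (chr11:65261862-65261961, plus strand) were the genes with a match among those farthest below UT in SID. GINS2 (chr16:85688955-85689054, minus strand), CDC25A (chr3:48188418-48188517, minus strand) and PCNA (chr20:5126623-5126722, minus strand, the first of 2 starts) stand for other roles. ORC1 (chr1:52404424-52404523, minus strand) has no exact match and was also among those farthest below UT. Its window holds attggcgc, which differs from the searched TTTGGCGC only in the first letter. In MCM6 the capitals are 2 overlapping matches, 90 and 86 bases before the start, and the single matches lie 53 bases before the start in POLA2, 31 in GINS2, 44 in CDC25A and 59 in PCNA.
MCM6: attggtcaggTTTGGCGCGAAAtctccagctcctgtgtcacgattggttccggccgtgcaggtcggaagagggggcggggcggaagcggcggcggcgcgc
POLA2: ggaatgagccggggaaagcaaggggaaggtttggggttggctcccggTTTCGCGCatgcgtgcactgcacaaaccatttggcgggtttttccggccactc
GINS2: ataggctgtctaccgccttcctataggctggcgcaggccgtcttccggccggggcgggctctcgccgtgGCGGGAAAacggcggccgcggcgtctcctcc
CDC25A: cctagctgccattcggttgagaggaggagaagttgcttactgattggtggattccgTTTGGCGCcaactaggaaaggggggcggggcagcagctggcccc
PCNA: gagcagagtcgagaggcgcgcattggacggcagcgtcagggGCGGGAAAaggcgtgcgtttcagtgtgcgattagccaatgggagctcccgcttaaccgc
ORC1: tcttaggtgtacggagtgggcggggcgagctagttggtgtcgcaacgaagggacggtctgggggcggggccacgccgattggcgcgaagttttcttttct
A match is a run of letters and not a shown binding site, and the arrays did not measure E2F binding.

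Before the list is described, the arrays need to be, because they did not fall into 3 groups. Over all 19460 probes with 1 symbol, replicates 1 and 2 of SCR and SID correlated with each other at r = 0.963 to 0.995, the UT arrays and replicate 3 of SCR and SID at r = 0.993 to 0.997, and arrays of these sets with each other at only r = 0.908 to 0.929. In a supplementary sheet of the study the replicate 3 columns are headed with the line's number, and the SCR one with a longer treatment time, while the columns of replicates 1 and 2 are not. The labels give all 9 arrays as 1 cell line and the treated arrays as 1 time point.

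Genes that mark the line moved with this split. CDKN2A, which encodes the CDK4/6 inhibitor p16 and is deleted in MDA-MB-231, had log2 signals of 10.97, 11.21 and 10.96 in UT, 9.91, 10.03 and 10.97 in SCR and 7.85, 7.58 and 11.17 in SID, in the order of replicates 1, 2 and 3, which is the order used throughout. MTAP, its neighbour and deleted with it, had 9.43, 9.31 and 9.51 in UT, 8.19, 8.35 and 9.37 in SCR and 6.43, 6.36 and 9.52 in SID. Both were at their lowest in SID 1 and 2, between in SCR 1 and 2, and high in the UT arrays and in replicate 3. In UT and replicate 3 both stood above the median of all tested probes, which was 8.41 to 8.46 on those arrays. That is not the level of a deleted gene, so in these 2 genes those arrays go against their MDA-MB-231 label. The identity of the cells was not tested. Of the 5 markers that are high in this line, CD44 read 10.68, 10.72 and 10.77 in UT, 13.25, 13.25 and 10.84 in SCR and 13.17, 13.21 and 10.73 in SID and AXL read 10.06, 10.14 and 10.02 in UT, 12.95, 13.20 and 9.95 in SCR and 13.31, 13.28 and 9.96 in SID. CAV1 followed the same split, while VIM ranged from 12.75 to 13.34 and MSN from 12.55 to 13.24 over the 9 arrays.

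The epithelial markers that the line lacks or has at low level differed too. CDH1, the E-cadherin gene, read 6.89, 6.81 and 6.87 in UT, 10.13, 11.08 and 6.73 in SCR and 7.05, 7.26 and 6.91 in SID. EPCAM read 6.71, 6.87 and 6.39 in UT, 10.78, 10.94 and 6.30 in SCR and 9.74, 10.14 and 6.14 in SID. CDH1 was high in SCR 1 and 2 alone and EPCAM in replicates 1 and 2 of both peptides, with GATA3 like EPCAM and KRT5 like CDH1. On those arrays these levels go against the low or absent signal given for the line. ESR1 and PGR lay between 5.61 and 7.23 on every array. The medians of the 5 high markers ran from 11.53 to 11.94 in UT and replicate 3 and from 13.21 to 13.25 in replicates 1 and 2, and the medians of the 9 low markers were 9.28 and 10.03 in SCR 1 and 2 and 7.05 to 7.54 on the other 7 arrays. These marker levels separate SID 1 and 2 from SCR 1 and 2 as well as both from UT, and their part in the differences of the replication genes was not tested.

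Averaged over the 3 arrays of each group, all 46 genes had a lower mean signal in SID than in SCR, where 44.8% of the 19460 probes did. The median difference over the 46 genes was -0.63 on the log2 scale, and over all probes it was 0.02. The size of the median over the 46 genes depended on single SID arrays, being -0.481 without SID 1, -0.326 without SID 2 and -0.998 without SID 3. It stayed below 0 whichever array was left out. A difference below -1, that is, past the limit used for a call, was found in 6 of the 46 genes (1.07% of all probes), namely CLSPN, CCNE2, MCM10, CDC6, GINS4 and MCM4. None of the 46 genes passed limma's test with Benjamini-Hochberg adjustment over all probes and a log2 limit of 1 (0% of all probes were called lower and 0% higher), the lowest adjusted p being 0.657, and without SID 3 the same test called 21 of them lower (1.9% of all probes). At an unadjusted p under 0.05, 14 of the 46 were lower in SID (3.05% of all probes). The methods' t-test, named there for comparisons of 2 groups in general, left 1 gene at an unadjusted p under 0.05 and 0 after adjustment, with a lowest adjusted p of 0.935. It is not the study's array test, which worked on single probes.

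Against UT, 43 of the 46 genes were lower in SID, with a median difference of -0.60 (-0.355 without SID 2 and -1.04 without SID 3). TK1, CHAF1B and SLBP were the exceptions. Again 0 genes were called (0% of all probes, lowest adjusted p = 0.388), which became 23 lower without SID 3 (5.29% of all probes), and 11 were lower at an unadjusted p under 0.05 (6.21% of all probes). SCR against UT split the list evenly, with 24 genes lower, 22 higher and a median difference of -0.01. No gene was called there (0% of all probes, lowest adjusted p = 0.332; 1 was called higher without SCR 3), and CHAF1B was the 1 gene higher at an unadjusted p under 0.05 (6.66% of all probes). The 3 comparisons share arrays and are not independent.

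**Figure D1:**
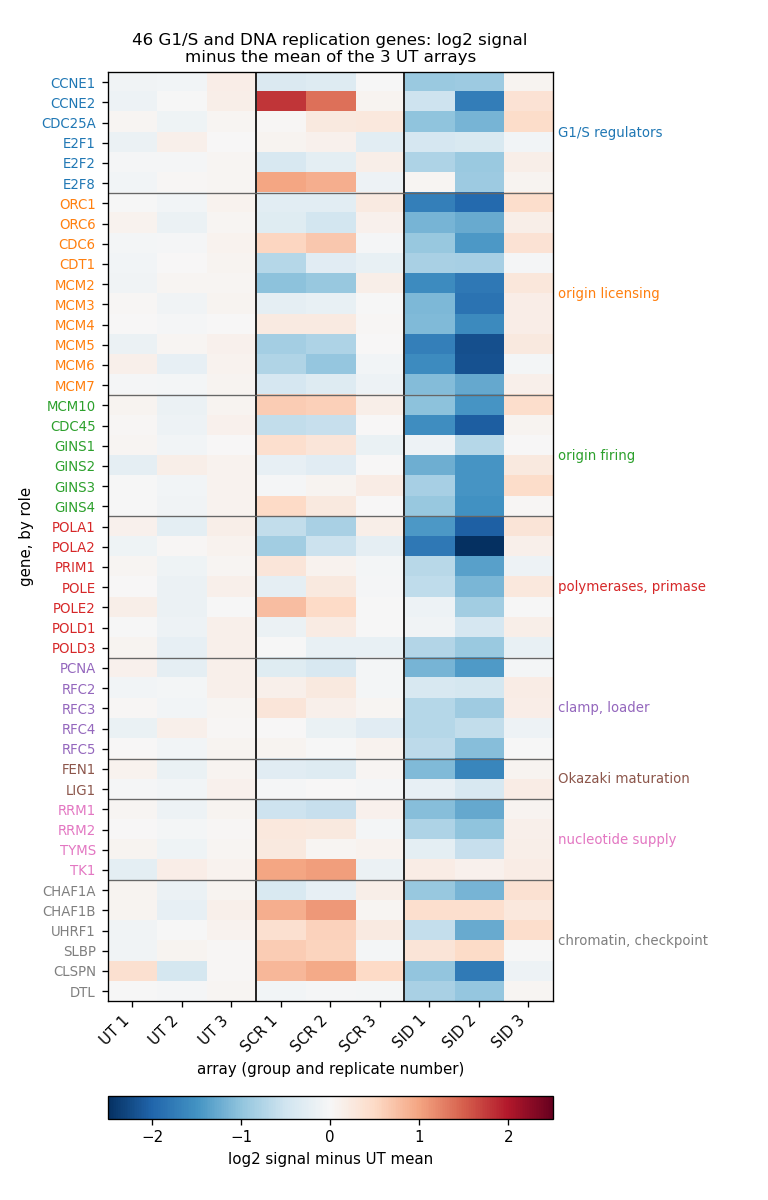
Log2 signal of the 46 genes (rows, ordered and coloured by role) on the 9 arrays (columns), minus the mean of the 3 UT arrays of that gene, with blue for lower and red for higher. SID 1 and SID 2 are blue in nearly every row, SCR 1 and SCR 2 hold both colours, and SCR 3 and SID 3 stay near the UT arrays.

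The group means hid a split by replicate number. SID minus SCR was below 0 in 45 of the 46 genes in replicate 1 (49.4% of all probes), with a median of -0.82, and in 46 of 46 in replicate 2 (39.2% of all probes), with a median of -1.12. In replicate 3 it was below 0 in 5 of 46 (44.9% of all probes), above 0 in 40 and equal in POLD3, with a median of 0.16. The difference passed -1 in 12 genes in replicate 1 (2.44% of all probes), in 27 in replicate 2 (5.12%) and in 0 in replicate 3. CLSPN, which encodes the adaptor claspin of the ATR-CHK1 checkpoint, was the gene with the lowest difference in replicate 3, at -0.62, after -1.82 and -2.72 in replicates 1 and 2. The 1 gene above 0 in replicate 1 was POLD1 at 0.07.

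**Figure D2:**
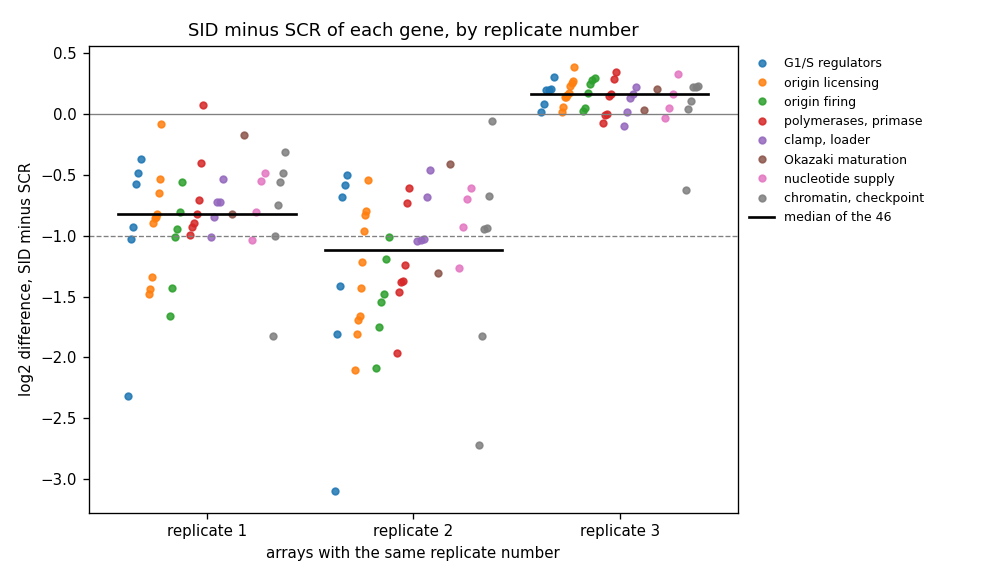
SID minus SCR of each of the 46 genes (log2 difference, vertical axis) on the arrays with the same replicate number, coloured by role, with the median of the 46 as a black bar and a dashed line at -1. The medians are -0.82 and -1.12 in replicates 1 and 2 and 0.16 in replicate 3.

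A second limma fit therefore gave replicate 3 of SCR and of SID a mean of its own, with these lone arrays assumed to vary like the other sets. In replicates 1 and 2, 23 of the 46 genes fell in SID against SCR (adjusted p under 0.05 and a log2 difference below -1; 3.31% of all probes), 0 rose (1.95%), and the median difference was -0.98. Against UT, 24 of the 46 fell in SID replicates 1 and 2 (6.4% of all probes), 0 rose (6.93%), and the median was -1.04. The UT arrays correlated more closely with replicate 3 than with replicates 1 and 2. Each comparison of replicates 1 and 2 with UT, here and below, therefore crosses the sets of correlated arrays. In 39 of the 46, SID 1 and SID 2 were both below each of the other 7 arrays (13.4% of all probes), and the 7 for which they were not were E2F8, GINS1, POLE2, POLD1, TK1, CHAF1B and SLBP. SCR replicates 1 and 2 against UT had 2 genes higher, CCNE2 and TK1 (6.58% of all probes), and 0 lower (4.82%), with a median of 0.01.

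In replicate 3, SID against SCR called 0 of the 46 genes (0% of all probes, and 0 of the 46 at an unadjusted p under 0.05). The difference itself, SID minus SCR in replicates 1 and 2 less that in replicate 3, had an adjusted p under 0.05 in 23 of the 46 genes, all of them lower in replicates 1 and 2 (4.71% of all probes). The fit was chosen after the split had been seen and replicate 3 is 1 array of each peptide, so this count describes the split and is not independent evidence of it. Leaving out any of UT 1, UT 2, UT 3, SCR 1 and SCR 2 reduced this count to 11, 15, 9, 9 and 9 genes, and it was 34 without SID 1. Without SID 2, 11 genes fell in SID against SCR in replicates 1 and 2, and without SID 1 the count was 27. For these counts with 1 array left out, no share of all probes is given. When the 4 arrays of replicates 1 and 2 were fitted alone, 19 genes fell (2.64% of all probes). The values by role below come from the fit with replicate 3 apart unless another is named. Beside each count by role stand the same shares of all probes, 3.31% lower in SID against SCR and 6.4% lower against UT.

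**Figure D3:**
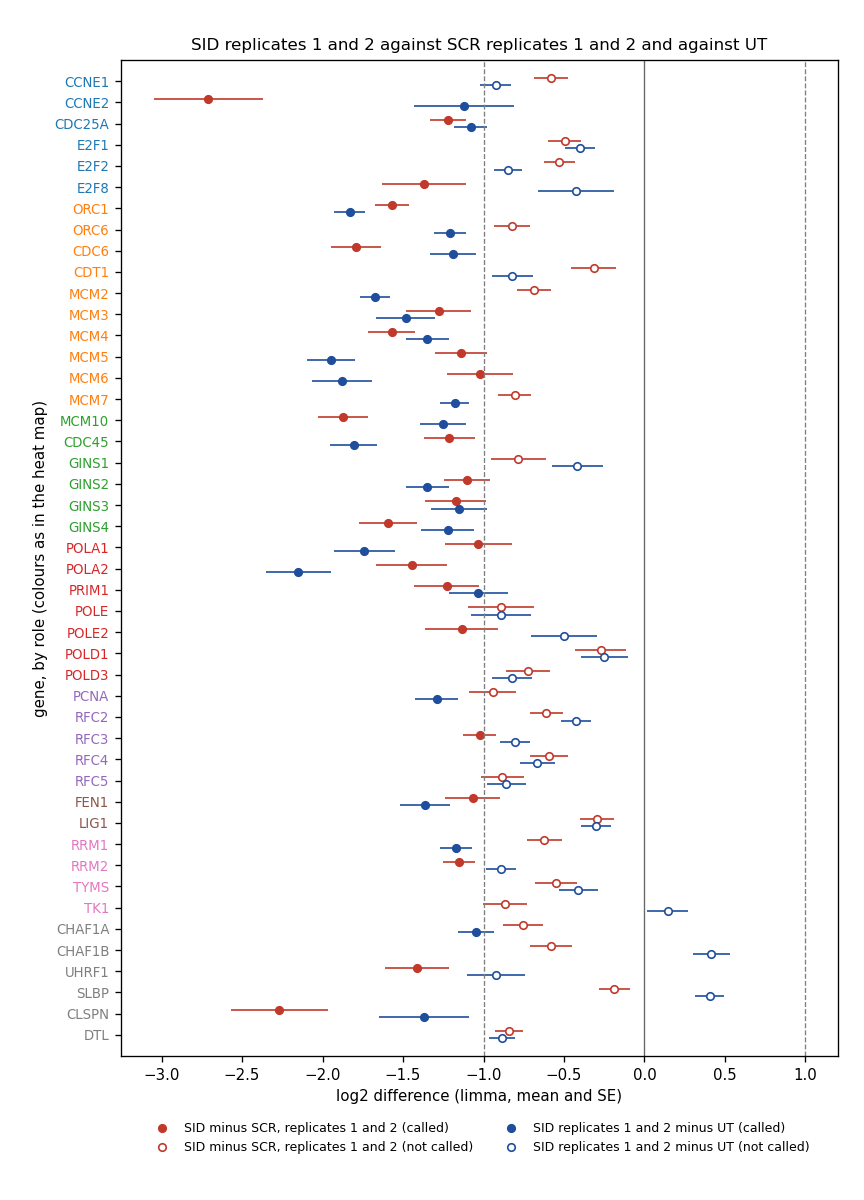
Log2 difference (horizontal axis, limma estimate with SE) of each of the 46 genes for SID minus SCR in replicates 1 and 2 (red) and for SID replicates 1 and 2 minus UT (blue), with filled points where the gene was called. All 46 red points lie below 0, and TK1, CHAF1B and SLBP are the genes with a blue point above 0.

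Of the 6 G1/S regulators, 3 fell in SID against SCR in replicates 1 and 2 and 2 fell against UT. CCNE2, one of the 2 E-type cyclins that activate CDK2, read 9.84, 9.96 and 10.12 in UT, 11.77, 11.35 and 10.05 in SCR and 9.45, 8.26 and 10.34 in SID. SCR 1 and 2 stood above every UT array and SID 1 and 2 below every UT array. The difference between the peptides was -2.71 ± 0.34 (SE, adjusted p = 0.00156), 6.54-fold lower in SID. Against UT, SCR 1 and 2 were at 1.59 ± 0.31 (SE, adjusted p = 0.00492) and SID 1 and 2 at -1.12 ± 0.31 (SE, adjusted p = 0.0221). These comparisons with UT cross the sets of correlated arrays, so they do not divide the difference into an effect of each peptide. CCNE1, the other E-type cyclin, read 9.54, 9.56 and 9.79 in UT, 9.27, 9.30 and 9.61 in SCR and 8.70, 8.71 and 9.69 in SID. Its SID 1 and 2 were the lowest of the 9 arrays, but with -0.58 ± 0.10 (SE, adjusted p = 0.00637) against SCR and -0.92 ± 0.10 (SE, adjusted p = 0.000158) against UT it did not reach the log2 limit of a call.

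CDC25A, the phosphatase that removes inhibitory phosphates from CDK2, read 9.71, 9.55 and 9.70 in UT, 9.68, 9.91 and 9.91 in SCR and 8.65, 8.50 and 10.11 in SID. Here SCR 1 and 2 lay with UT, at 0.14 ± 0.10 (SE, adjusted p = 0.361), and SID 1 and 2 lay apart from all others, at -1.22 ± 0.11 (SE, adjusted p = 0.000515) against SCR and -1.08 ± 0.10 (SE, adjusted p = 0.000106) against UT. E2F8, an atypical E2F that represses E2F targets late in S phase, read 9.35, 9.45 and 9.47 in UT, 10.40, 10.33 and 9.29 in SCR and 9.47, 8.52 and 9.49 in SID. It differed between the peptides by -1.37 ± 0.26 (SE, adjusted p = 0.00776) and not past the limits from UT, at -0.43 ± 0.24 (SE, adjusted p = 0.206), since SCR 1 and 2 were above the UT arrays. E2F1, an activator E2F, was the regulator with the smallest mean difference over the 3 replicates, and it read 10.48, 10.74 and 10.63 in UT, 10.69, 10.73 and 10.36 in SCR and 10.20, 10.23 and 10.55 in SID. With -0.50 ± 0.10 (SE, adjusted p = 0.0111) it stayed within the log2 limit, as did E2F2, another activator, with -0.53 ± 0.10 (SE, adjusted p = 0.00671).

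Origin licensing held the largest share of genes that fell against UT, 9 of 10, with 6 of 10 that fell against SCR in replicates 1 and 2. SCR 1 and 2 were themselves below UT in 8 of these 10 genes, with a median difference of -0.38. ORC1, the ATPase subunit of the origin recognition complex that is made anew in G1, read 9.64, 9.59 and 9.74 in UT, 9.38, 9.40 and 9.87 in SCR and 7.94, 7.71 and 10.10 in SID. SID 1 and 2 were more than a log2 unit below each of the other arrays, which lay between 9.38 and 10.10, and the differences were -1.57 ± 0.10 (SE, adjusted p = 0.00018) against SCR and -1.83 ± 0.10 (SE, adjusted p = 4.24e-06) against UT. ORC6, the smallest subunit of that complex, read 9.82, 9.59 and 9.78 in UT, 9.43, 9.26 and 9.83 in SCR and 8.58, 8.46 and 9.88 in SID. It fell against UT, at -1.21 ± 0.10 (SE, adjusted p = 5.31e-05), while its -0.82 ± 0.11 (SE, adjusted p = 0.00203) against SCR did not reach the limit. CDC6, the loader that joins ORC, read 11.45, 11.48 and 11.59 in UT, 12.04, 12.18 and 11.48 in SCR and 10.56, 10.07 and 11.86 in SID. SCR 1 and 2 were its highest arrays and SID 1 and 2 its lowest, so that it fell by more against SCR (-1.79 ± 0.15 SE, adjusted p = 0.000403) than against UT (-1.19 ± 0.14 SE, adjusted p = 0.000334).

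The 6 subunits of the MCM2-7 helicase all fell in SID 1 and 2 against UT, and MCM3, MCM4, MCM5 and MCM6 also against SCR. MCM2 read 11.53, 11.67 and 11.68 in UT, 10.60, 10.68 and 11.76 in SCR and 10.06, 9.85 and 11.90 in SID. MCM5 read 11.50, 11.69 and 11.76 in UT, 10.79, 10.88 and 11.65 in SCR and 9.94, 9.46 and 11.90 in SID. MCM6 read 11.52, 11.19 and 11.49 in UT, 10.65, 10.43 and 11.34 in SCR and 9.83, 9.21 and 11.35 in SID. In these 3 the SCR arrays of replicates 1 and 2 were themselves below UT, by -0.99 ± 0.10 (SE, adjusted p = 0.000129), -0.81 ± 0.15 (SE, adjusted p = 0.00358) and -0.86 ± 0.19 (SE, adjusted p = 0.00846), and SID 1 and 2 were lower still. Against UT the differences were -1.67 ± 0.10 (SE, adjusted p = 6.67e-06) for MCM2, -1.95 ± 0.15 (SE, adjusted p = 3.19e-05) for MCM5 and -1.88 ± 0.19 (SE, adjusted p = 0.000135) for MCM6.

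The other 3 MCM subunits kept nearer to UT in SCR. MCM4 read 11.17, 11.13 and 11.18 in UT, 11.39, 11.38 and 11.18 in SCR and 10.05, 9.57 and 11.32 in SID. MCM3 read 12.45, 12.34 and 12.49 in UT, 12.20, 12.25 and 12.43 in SCR and 11.30, 10.59 and 12.59 in SID. MCM7 read 12.60, 12.58 and 12.69 in UT, 12.20, 12.31 and 12.49 in SCR and 11.55, 11.34 and 12.76 in SID. MCM4 fell against both, at -1.57 ± 0.15 (SE, adjusted p = 0.000514) against SCR and -1.35 ± 0.13 (SE, adjusted p = 0.000124) against UT, with SCR 1 and 2 above the UT arrays by 0.22 ± 0.13 (SE, adjusted p = 0.251). MCM3 fell by 1.28 against SCR (adjusted p = 0.00368), and MCM7, at -0.81 ± 0.10 (SE, adjusted p = 0.00156) against SCR, passed the adjusted p but not the limit of size. Over the 6 subunits, replicate 3 of SID lay between 11.32 and 12.76 and was not below its SCR partner in any of them. CDT1, which brings MCM to origins and is destroyed in S phase, had the smallest mean difference of the group and read 9.75, 9.83 and 9.89 in UT, 9.10, 9.53 and 9.64 in SCR and 9.01, 8.99 and 9.79 in SID. It passed neither limit against SCR (-0.32 ± 0.14 SE, adjusted p = 0.151), and SID 1 and 2 were both lower than the other 7 arrays by a small margin.

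Of the 6 genes of origin firing, 5 fell in SID against SCR in replicates 1 and 2 and the same number against UT. MCM10, a factor needed to activate the loaded helicase, read 10.41, 10.18 and 10.41 in UT, 10.97, 10.93 and 10.48 in SCR and 9.31, 8.85 and 10.78 in SID. The SCR arrays of replicates 1 and 2 were its highest and SID 1 and 2 its lowest, at -1.87 ± 0.16 (SE, adjusted p = 0.000352) between them, 3.66-fold lower in SID. CDC45, the helicase cofactor, read 11.47, 11.30 and 11.54 in UT, 10.82, 10.86 and 11.45 in SCR and 9.87, 9.38 and 11.50 in SID. SCR 1 and 2 were below UT, at -0.60 ± 0.15 (SE, adjusted p = 0.0142), and SID 1 and 2 fell below both, at -1.21 ± 0.16 (SE, adjusted p = 0.00187) against SCR and -1.81 ± 0.15 (SE, adjusted p = 4.3e-05) against UT.

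The GINS complex, which joins CDC45 and MCM, has 4 subunits, of which 3 fell. GINS4 read 9.34, 9.26 and 9.45 in UT, 9.84, 9.60 and 9.36 in SCR and 8.41, 7.84 and 9.38 in SID. GINS2 read 11.82, 12.18 and 12.13 in UT, 11.84, 11.76 and 12.05 in SCR and 10.82, 10.57 and 12.30 in SID. GINS3 read 9.89, 9.83 and 9.98 in UT, 9.88, 9.96 and 10.09 in SCR and 9.07, 8.42 and 10.37 in SID. All 3 had SID 1 and 2 as their lowest arrays and fell against SCR, at -1.59 ± 0.18 (SE, adjusted p = 0.00113), -1.10 ± 0.14 (SE, adjusted p = 0.00173) and -1.17 ± 0.19 (SE, adjusted p = 0.00417), as well as against UT. GINS1 read 11.02, 10.90 and 10.96 in UT, 11.39, 11.26 and 10.80 in SCR and 10.83, 10.25 and 10.97 in SID. Its SID 1 overlapped SCR 3 and lay just under the UT arrays, and with -0.78 ± 0.17 (SE, adjusted p = 0.0142) against SCR and -0.42 ± 0.16 (SE, adjusted p = 0.0719) against UT it was not called. Whether GINS1 differs from its partners was not tested.

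Among the 7 polymerase and primase genes, 4 fell against SCR in replicates 1 and 2 and 3 fell against UT. POLA2, the regulatory subunit of DNA polymerase alpha, which starts each new strand, read 10.59, 10.73 and 10.79 in UT, 9.83, 10.16 and 10.48 in SCR and 8.90, 8.19 and 10.82 in SID. SCR 1 and 2 were below UT and SID 1 and 2 were lower again, with SID 2 the lowest, and the difference of -2.15 ± 0.20 (SE, adjusted p = 9.48e-05) from UT, 4.44-fold lower, was the largest of the 46 genes in size. POLA1, the catalytic subunit, read 10.59, 10.25 and 10.63 in UT, 9.88, 9.68 and 10.64 in SCR and 9.05, 8.44 and 10.80 in SID. It showed the same order of arrays, with -1.03 ± 0.21 (SE, adjusted p = 0.0103) against SCR and -1.74 ± 0.19 (SE, adjusted p = 0.000221) against UT. PRIM1, the primase that lays the RNA primer, read 10.83, 10.67 and 10.83 in UT, 11.08, 10.87 and 10.73 in SCR and 10.08, 9.41 and 10.65 in SID, and here SCR 1 and 2 were slightly above the UT arrays. It fell by both comparisons, at -1.23 ± 0.20 (SE, adjusted p = 0.00428) against SCR and -1.03 ± 0.18 (SE, adjusted p = 0.00268) against UT.

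POLE2, an accessory subunit of the leading-strand polymerase epsilon, read 10.90, 10.61 and 10.75 in UT, 11.52, 11.26 and 10.75 in SCR and 10.62, 9.88 and 10.74 in SID. It fell against SCR (-1.13 ± 0.23 SE, adjusted p = 0.00983), with SCR 1 and 2 above every other array, and not against UT (-0.50 ± 0.21 SE, adjusted p = 0.0964), whose arrays overlapped SID 1. POLE, the catalytic subunit, passed the adjusted p in both comparisons but not the limit of size, at -0.89 ± 0.21 (SE, adjusted p = 0.0172) and -0.89 ± 0.19 (SE, adjusted p = 0.00638). POLD1, the catalytic subunit of the lagging-strand polymerase delta, was the gene of this group with the smallest mean difference and read 9.78, 9.66 and 9.90 in UT, 9.63, 9.98 and 9.78 in SCR and 9.70, 9.36 and 9.92 in SID. SID 1 lay among the UT and SCR arrays, and -0.27 ± 0.16 (SE, adjusted p = 0.281) did not pass the test. POLD3, an accessory subunit of the same enzyme, was at -0.72 ± 0.14 (SE, adjusted p = 0.0077) against SCR.

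Of the 5 genes of the sliding clamp and its loader, 1 fell in each comparison. PCNA, the ring that holds polymerases on DNA, read 11.90, 11.56 and 11.92 in UT, 11.48, 11.40 and 11.74 in SCR and 10.63, 10.37 and 11.75 in SID. SID 1 and 2 were lower than all other arrays, and PCNA fell against UT (-1.29 ± 0.13 SE, adjusted p = 0.00016) but at -0.94 ± 0.15 (SE, adjusted p = 0.00352) stayed just within the log2 limit against SCR. RFC3, a loader subunit, read 11.62, 11.53 and 11.64 in UT, 11.89, 11.73 and 11.64 in SCR and 10.88, 10.70 and 11.77 in SID. It was the 1 gene of the 5 that fell against SCR, at -1.02 ± 0.10 (SE, adjusted p = 0.000711), and against UT it was within the limit at -0.81 ± 0.09 (SE, adjusted p = 0.000317).

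The remaining loader subunits had SID 1 and 2 as their lowest arrays without reaching a call in either comparison. RFC5 read 10.76, 10.68 and 10.81 in UT, 10.82, 10.74 and 10.85 in SCR and 10.09, 9.69 and 10.75 in SID. RFC2 had the smallest mean difference of the group and read 11.65, 11.67 and 11.86 in UT, 11.85, 11.97 and 11.69 in SCR and 11.32, 11.29 and 11.91 in SID. In RFC4 the difference from SCR was -0.59 ± 0.12 (SE, adjusted p = 0.00989). Of the pair that matures Okazaki fragments, FEN1, the flap nuclease, read 11.29, 11.04 and 11.28 in UT, 10.92, 10.89 and 11.24 in SCR and 10.10, 9.58 and 11.27 in SID and fell against SCR (-1.07 ± 0.17 SE, adjusted p = 0.00403) and UT (-1.36 ± 0.16 SE, adjusted p = 0.000277). LIG1, the ligase that seals the fragments, read 9.15, 9.10 and 9.28 in UT, 9.15, 9.19 and 9.15 in SCR and 8.97, 8.78 and 9.35 in SID. Its arrays spanned less than a log2 unit in all, and -0.30 ± 0.10 (SE, adjusted p = 0.0763) did not pass the test.

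Of the 4 genes of nucleotide supply, 1 fell against SCR in replicates 1 and 2 and 1 against UT. RRM1 and RRM2 encode the large and small subunits of ribonucleotide reductase, which makes deoxyribonucleotides. RRM1 read 12.95, 12.78 and 12.97 in UT, 12.38, 12.32 and 13.01 in SCR and 11.83, 11.63 and 12.97 in SID. RRM2 read 11.28, 11.22 and 11.29 in UT, 11.53, 11.51 and 11.22 in SCR and 10.49, 10.25 and 11.38 in SID. RRM1 was already lower than UT in SCR 1 and 2 (-0.55 ± 0.10 SE, adjusted p = 0.00323) and was called against UT alone (-1.17 ± 0.10 SE, adjusted p = 5.31e-05). RRM2 was slightly above UT in SCR 1 and 2 (0.26 ± 0.09 SE, adjusted p = 0.0598) and was called against SCR alone (-1.15 ± 0.10 SE, adjusted p = 0.00041). TYMS, thymidylate synthase, with -0.55 ± 0.13 (SE, adjusted p = 0.0205) against SCR, read 12.23, 12.05 and 12.22 in UT, 12.40, 12.21 and 12.26 in SCR and 11.92, 11.59 and 12.31 in SID. TK1, the S phase thymidine kinase, read 10.90, 11.31 and 11.24 in UT, 12.13, 12.18 and 11.005 in SCR and 11.33, 11.26 and 11.33 in SID. SCR 1 and 2 were its highest arrays, at 1.01 ± 0.13 (SE, adjusted p = 0.000499) against UT, while SID 1 and 2 overlapped UT, at 0.14 ± 0.13 (SE, adjusted p = 0.444).

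Among the 6 genes of chromatin assembly, replication-coupled control and checkpoint signalling, 2 fell against SCR in replicates 1 and 2. CLSPN read 9.96, 9.13 and 9.59 in UT, 10.40, 10.51 and 10.05 in SCR and 8.58, 7.80 and 9.42 in SID. SCR 1 and 2 were above the UT arrays and SID 1 and 2 below them, with -2.27 ± 0.30 (SE, adjusted p = 0.00197) against SCR, 4.82-fold lower, and -1.37 ± 0.28 (SE, adjusted p = 0.00526) against UT. A second CLSPN probe, not used for the counts, gave -2.004 in the same comparison with SCR. UHRF1, which guides maintenance of DNA methylation behind the fork, read 11.20, 11.28 and 11.38 in UT, 11.69, 11.86 and 11.51 in SCR and 10.69, 10.03 and 11.73 in SID and fell against SCR at -1.41 ± 0.20 (SE, adjusted p = 0.00227). Its second probe, with signals of 6.98 to 7.37 on the 9 arrays, gave -0.03, so the fall in UHRF1 rests on 1 of 2 probes.

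CHAF1A and CHAF1B, partners in the chromatin assembly factor that places histones on new DNA, had differences of opposite sign from UT. CHAF1A read 10.47, 10.24 and 10.47 in UT, 10.02, 10.18 and 10.54 in SCR and 9.45, 9.24 and 10.77 in SID and fell against UT at -1.05 ± 0.11 (SE, adjusted p = 0.000194). CHAF1B was called in neither comparison, at -0.58 ± 0.13 (SE, adjusted p = 0.0145) against SCR and 0.42 ± 0.12 (SE, adjusted p = 0.0238) against UT. SLBP, which binds the stem-loop of histone mRNAs, had the smallest mean difference of the 46 genes and read 10.76, 10.92 and 10.88 in UT, 11.49, 11.40 and 10.81 in SCR and 11.18, 11.34 and 10.85 in SID. Both peptides in replicates 1 and 2 were above UT in SLBP, and -0.19 ± 0.10 (SE, adjusted p = 0.233) between them did not pass the test. DTL, which directs destruction of CDT1 in S phase, passed the adjusted p but not the limit of size, at -0.84 ± 0.09 (SE, adjusted p = 0.000814) against SCR and -0.89 ± 0.08 (SE, adjusted p = 7.87e-05) against UT.

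Of the other genes of the pathway, 64 of 66 listed were measured, and in replicates 1 and 2 of SID 9 fell and 0 rose against SCR (3.31% and 1.95% of all probes), with a median difference of -0.42. Against UT 15 fell and 5 rose (6.4% and 6.93% of all probes), with a median of -0.25, so the number that rose was near the background. The 9 that fell against SCR were RBL1, CDKN2A, MYBL2, CDC7, TICRR, TIMELESS, TIPIN, DSCC1 and HELLS, of which those without array values are named after their values were seen. HELLS, a chromatin remodeller of DNA methylation, read 10.21, 9.94 and 10.14 in UT, 10.14, 10.23 and 10.07 in SCR and 8.77, 7.30 and 10.11 in SID. DSCC1, a subunit of the alternative loader that places PCNA for sister chromatid cohesion, read 9.67, 9.69 and 9.77 in UT, 9.51, 9.26 and 9.75 in SCR and 7.66, 7.54 and 9.80 in SID. TIPIN, which with TIMELESS protects the fork, read 10.71, 10.23 and 10.81 in UT, 10.67, 10.69 and 11.05 in SCR and 9.13, 8.57 and 10.996 in SID. In all 3, SID 1 and 2 were the lowest arrays, and those of SCR 1 and 2 lay within or above UT in HELLS, within UT in TIPIN and below UT in DSCC1, with differences from SCR of -2.15 ± 0.39 (SE, adjusted p = 0.00683), -1.78 ± 0.11 (SE, adjusted p = 0.000133) and -1.83 ± 0.23 (SE, adjusted p = 0.00152). The largest mean difference of the pathway genes over the 3 replicates was that of CDKN2A, at -1.44 ± 0.88 (SE, adjusted p = 0.717), and in replicates 1 and 2 it was -2.26 ± 0.13 (SE, adjusted p = 0.000112).

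Of the cell cycle control genes in this list, CCND1, CDK2, CDKN1A, CDKN1B and RB1 were not called between the peptides in replicates 1 and 2, while CDKN2A and RBL1, which encodes the RB relative p107, were, RBL1 at -1.09 ± 0.23 (SE, adjusted p = 0.0128). CDK2, the kinase partner of cyclin E, read 12.49, 12.65 and 12.54 in UT, 11.61, 11.77 and 12.38 in SCR and 11.39, 11.51 and 12.46 in SID. It was lower than UT in replicates 1 and 2 of both peptides, called in SID (-1.11 ± 0.09 SE, adjusted p = 5.15e-05) and just within the limit in SCR (-0.87 ± 0.09 SE, adjusted p = 0.000218), and -0.24 ± 0.10 (SE, adjusted p = 0.138) between the peptides did not pass the test. CCND1, cyclin D1, read 11.76, 11.74 and 11.88 in UT, 12.20, 12.32 and 12.02 in SCR and 12.06, 12.12 and 12.05 in SID, with -0.17 ± 0.09 (SE, adjusted p = 0.23) between the peptides. CDKN1A and CDKN1B encode the CDK inhibitors p21 and p27. CDKN1A read 9.94, 10.02 and 10.13 in UT, 9.72, 9.86 and 10.02 in SCR and 9.88, 10.34 and 10.33 in SID, with 0.32 ± 0.15 (SE, adjusted p = 0.182) between the peptides. CDKN1B read 11.07, 10.87 and 11.11 in UT, 10.63, 10.52 and 10.88 in SCR and 10.87, 10.71 and 10.89 in SID, with 0.21 ± 0.11 (SE, adjusted p = 0.232). In CCND1 and CDKN1A the arrays of SCR and SID overlapped, and in CDKN1B the values stayed within a log2 unit. RB1, the founding RB protein, read 11.24, 11.17 and 11.32 in UT, 12.18, 11.91 and 11.46 in SCR and 11.54, 11.23 and 11.57 in SID, and was at 0.80 ± 0.12 (SE, adjusted p = 0.00136) in SCR 1 and 2 against UT and at -0.66 ± 0.13 (SE, adjusted p = 0.0106) in SID against SCR. None of these 4 was called in any of the 3 comparisons of replicates 1 and 2.

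Genes used later in the cycle and in repair were set beside the list. Of 25 mitosis genes measured (26 listed), 3 fell in SID against SCR in replicates 1 and 2 (3.31% of all probes), namely CENPE, MKI67 and FOXM1. Against UT 0 fell or rose (6.4% and 6.93% of all probes), and the median differences were -0.35 against SCR and -0.07 against UT. Of 18 repair genes measured (22 listed), 8 fell against SCR (3.31% of all probes) and 7 against UT (6.4% of all probes), with medians of -0.76 and -0.77. For the 46 replication genes the same medians were -0.98 and -1.04, and for all probes 0.04 and 0.02. In SCR 1 and 2 against UT the median difference was 0.27 for the mitosis genes and 0.01 for the replication genes. The lists were compared by these counts and medians alone.

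**Figure D4:**
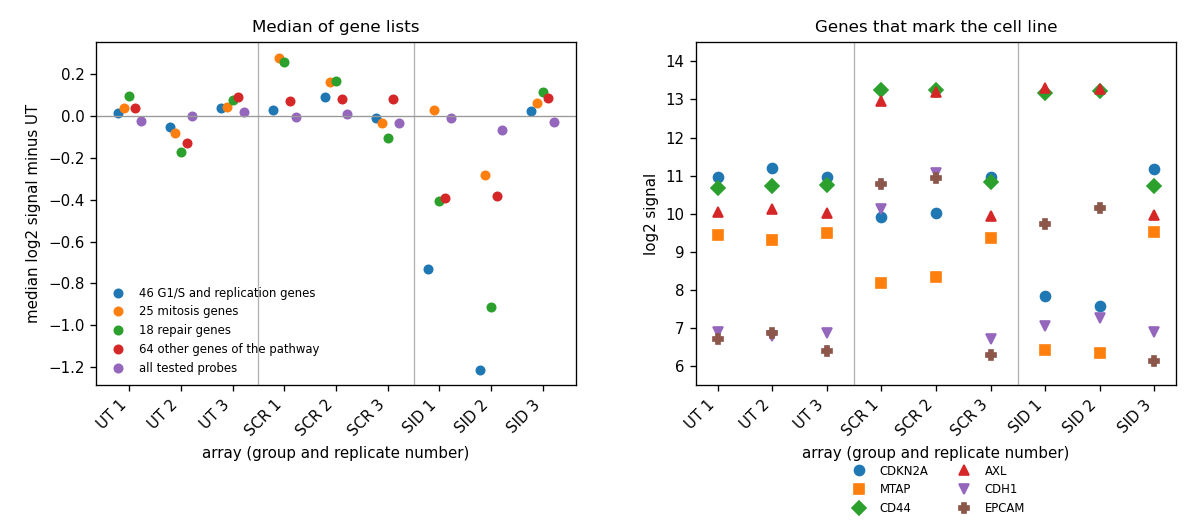
Left, the median log2 signal of each gene list on each array, minus the mean of its medians on the 3 UT arrays; right, the log2 signal of 6 genes that mark the cell line. In SID 1 and SID 2 the 46 replication genes have the lowest median of the 5 sets, and CDKN2A and MTAP are at their lowest on the same arrays.

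The median level of the 46 genes was 10.80, 10.73 and 10.83 in UT, 10.82, 10.88 and 10.78 in SCR and 10.05, 9.57 and 10.81 in SID. On the scale of this median, SID 1 and 2 alone stood apart from the other 7 arrays, which spanned 10.73 to 10.88. By role the order of SCR 1 and 2 against UT was not uniform. The median of the licensing genes was 10.72 and 10.78 in SCR 1 and 2 and 11.33 to 11.54 in UT, whereas that of the chromatin and checkpoint group was 11.12 and 11.17 in SCR 1 and 2 and 10.58 to 10.67 in UT. In both groups the medians of SID 1 and 2 were under those of every other array, 10.00 and 9.51 for licensing and 10.48 and 10.15 for chromatin and checkpoint. SID 1 and 2 differ from the other arrays in the marker genes given above as well, and which of treatment, array set and marker difference the levels of the replication genes follow cannot be told apart with these 9 arrays.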

How the data were processed

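RNA of 9 samples labelled MDA-MB-231 was hybridised to Affymetrix Human Gene 1.0 ST arrays. The deposited log2 values per transcript cluster were used as the authors left them; the labels name Affymetrix Expression Console, RMA and Transcriptome Analysis Console without versions or roles, and the log2 scale was read from the values (3.75 to 14.9, array medians 7.68 to 7.77). Background correction and summary by the authors compress low signals, so low genes may differ by more than shown. Array data have no read depth, and 3 arrays per group limit the precision.

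Of 33297 probes, 19460 had 1 gene symbol in the platform annotation and were tested, 1754 had several and 12083 none. Groups were taken from the sample titles. limma 3.58.1 (R 4.3.3) was fitted to 3 group means over all 9 arrays, and a call needed a Benjamini-Hochberg adjusted p under 0.05 and a log2 difference past 1. A second fit used 5 means, with replicate 3 of SCR and of SID apart. The study's own test on single probes could not be repeated on these values. Array values are given for genes called in either fit, for the 2 largest and the smallest mean SID minus SCR difference of each role, for CCNE1 and CCNE2, and in the pathway for CCND1, CDK2, CDKN1A, CDKN1B, CDKN2A, RB1 and the 4 largest. The genes, lists and fits were chosen with earlier results of these data known. Scripts were tested on simulated data. Motifs were searched with Python 3.11.15.

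Deviations from the group means correlated between SCR and SID arrays of the same number at r = 0.77, 0.57 and 0.79, which by the rule used here pairs them, although SCR 1 with SID 2 and SCR 2 with SID 1 were at 0.60 and 0.75. SCR 3 with SID 1 was at -0.83 and SCR 1 with SID 3 at -0.74. The correlations thus follow the split of replicate 3 from the others and do not pair replicates 1 and 2 by number. Alternatives were quantile normalization, median centring, probes above the median level, the mean of a gene's probes, array weights, a replicate block, the methods' t-test and leaving out each array.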

Additional observations from a re-analysis of the deposited data

Results flagged for a closer look

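SID minus SCR in replicates 1 and 2, less SID minus SCR in replicate 3, had an adjusted p under 0.05 by limma in 23 of the 46 genes, and all 23 were lower in replicates 1 and 2. The fit was chosen with this split already seen, so the count describes it and is no independent test. Replicate 3 of each peptide is 1 array, assumed to vary like the others, and the count was 9 to 34 when 1 of the other 7 arrays was left out.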

How the results depend on the processing

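In the 3-group fit, quantile normalization, median centring, the filter on probe level, the mean of a gene's probes and the methods' t-test left the counts of called genes at 0. With array weights, which gave SCR 3 and SID 3 weights of 0.176 and 0.138, 15 genes were called in SID against SCR, 21 in SID against UT and 1 in SCR against UT, and the median of SCR against UT was -0.0668. The weights did not converge fully. For the weights and for most arrays left out, no share of all probes is given, so those counts have no background beside them. With replicate 3 apart the counts were 23, 24 and 2, and replicates 1 and 2 of SCR and SID alone gave 19. Leaving out 1 array gave 0 to 21 genes in SID against SCR and 0 to 23 in SID against UT (the highest without SID 3), 0 to 1 in SCR against UT (without SCR 3), and medians of SCR against UT from -0.0489 to 0.0466. With replicate 3 apart, leaving out 1 of the other arrays gave 11 to 27 genes in SID against SCR, 2 to 4 in SCR against UT and 9 to 34 for the difference between replicate sets; quantile normalization gave 1 lower and 1 higher gene in SCR against UT in place of 2 higher. Single genes whose mean SID minus SCR difference turned were SLBP (-0.324 to 0.0265 over the arrays left out, above 0 without SCR 1 or SID 3), CDK2 (-0.467 to 0.0972, above 0 without SCR 3, SID 1 or SID 2), POLD1 (-0.262 to 0.0178) and LIG1 (-0.289 to 1e-04), the last pair above 0 without SID 2. The cause was not tested. All other settings kept the direction of the median differences of SID against SCR and against UT.

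With the replicate block, 0 genes were called in each of the 3 comparisons, as without it. The block was not run on the fit with replicate 3 apart. UT arrays did not correlate with their own number in SCR (r = -0.07, -0.02 and -0.06), nor did each in SID (0.03, 0.21 and 0.09). Splitting off replicate 3, the 5 settings for that fit and leaving out its arrays were judged with the data in view. Probes near the background of the array give small differences whatever the change.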
